A study of Mus musculus with 8 samples.

Results

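The genes described here encode 1 receptor of the ROR family and both receptors of the REV-ERB family. They are Rora (ENSMUSG00000032238, the gene deleted in this study), Nr1d1 (ENSMUSG00000020889, REV-ERBα) and Nr1d2 (ENSMUSG00000021775, REV-ERBβ), taken by symbol as 3 of the 38283 rows of a table of gene expression. The table holds 8 liver libraries of male C57BL/6 mice that all carried loxP-flanked Rora alleles. RORα f/f mice had no Cre, and RORα LKO mice (Alb-cre;RORα f/f) also carried Cre under the albumin promoter, which acts in hepatocytes. From 8 weeks of age the mice ate a control diet (CD) or a high-fat diet (HFD, 60% of kcal from fat) for 10 weeks. Each of the 4 groups (RORα f/f on CD, RORα LKO on CD, RORα f/f on HFD, RORα LKO on HFD) has 2 libraries, and each library pools the livers of 2 mice.

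ROR and REV-ERB receptors compete for the same DNA element, an A/T-rich stretch followed by the core motif of nuclear receptors. RORα activates transcription from it. REV-ERBα and REV-ERBβ lack the helix that recruits coactivators, bind heme, and repress by bringing in a corepressor complex that holds HDAC3. In liver they repress Arntl (BMAL1), the circadian activator that in turn drives their own genes, and the same element links the clock to lipid and glucose metabolism.

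The floxed exons are a small part of the longer coding transcript of Rora. Rora lies on the plus strand at chr9:68653786-69388246 (GRCm38), and GENCODE M21 gives it 6 transcripts, of which 2 are annotated as protein coding. Exons 4 and 5, taken here as those of the transcript Rora-201, span 538 of its 10878 bases (4.95%), and they make up 20.8% of the shorter coding transcript Rora-202. Exon 4 is shown because it codes for part of the DNA-binding domain and because both qPCR primers of the study for Rora lie in it (capitals: the forward primer's own letters, then the site of the reverse primer). Its 142 bases lie at chr9:69361739-69361880 and are read from the GENCODE transcript.
Rora exon 4: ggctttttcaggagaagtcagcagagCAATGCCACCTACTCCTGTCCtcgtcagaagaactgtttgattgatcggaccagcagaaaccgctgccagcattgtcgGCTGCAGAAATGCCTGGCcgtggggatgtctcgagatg
The primers bound a product of 96 bases, all of it inside the deleted exon. A value over the whole gene, as in this table, also counts bases outside the floxed exons, 10340 in Rora-201 and 2053 in Rora-202. Which of the transcripts the reads came from cannot be told from such a value.

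**Figure D1:**
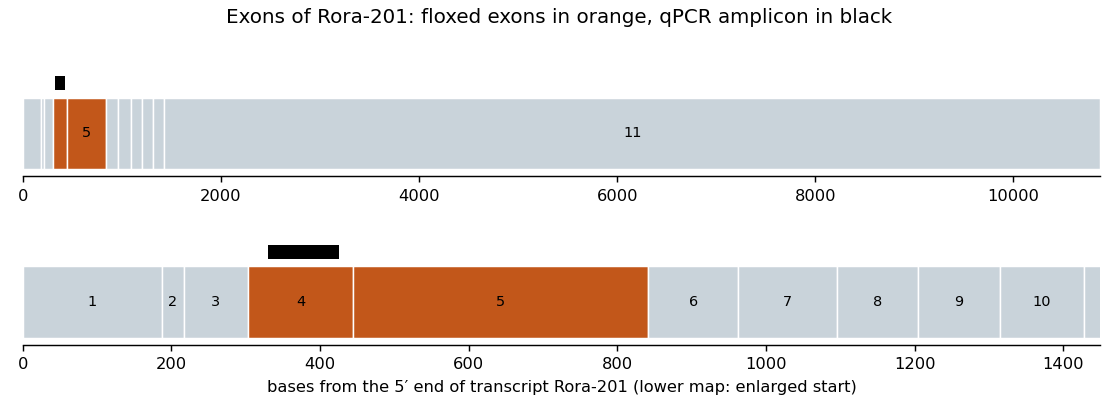
Exons of the Rora transcript Rora-201 in order, drawn to scale along the mRNA in bases from its 5′ end, whole above and with its first part enlarged below. The floxed exons 4 and 5 (orange) hold 538 of 10878 bases, exon 11 alone holds 9450, and the qPCR product (black) of 96 bases falls inside exon 4.

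The promoters of the REV-ERB genes are shown because both genes are known targets of the clock and of this receptor family. Windows are from RefSeq (GRCm38.p6) on the minus strand and hold bases before the start given there, without bases of a GENCODE M21 exon of the gene. For Nr1d1 the window lies at chr11:98775378-98775627 and ends some bases before its GENCODE start at 98775333. For Nr1d2 it lies at chr14:18239128-18239356 and ends at the last base before its first GENCODE exon base. Capitals mark a match to a searched motif.
Nr1d1 promoter: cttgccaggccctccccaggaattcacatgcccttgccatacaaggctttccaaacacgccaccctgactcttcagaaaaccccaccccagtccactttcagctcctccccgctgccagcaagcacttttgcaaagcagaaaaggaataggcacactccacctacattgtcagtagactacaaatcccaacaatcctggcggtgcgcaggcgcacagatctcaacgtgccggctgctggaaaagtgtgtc
Nr1d2 promoter: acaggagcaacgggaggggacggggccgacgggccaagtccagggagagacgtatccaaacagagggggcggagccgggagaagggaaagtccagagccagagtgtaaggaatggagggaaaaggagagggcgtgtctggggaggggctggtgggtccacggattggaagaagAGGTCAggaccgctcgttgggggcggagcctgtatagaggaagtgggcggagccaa
The motifs, searched on both strands from 250 bases before to 50 bases after the start, were the E-box CACGTG, the core motifs AGGTCA and GGGTCA, the ROR response element (5 bases of which at least 4 are A or T, then T, A or G, and GGTCA, so that each match holds a core motif), the direct repeat of AGGTCA spaced by 2 bases, and the D-boxes TTATGTAA and TTACGTAA. Nr1d2 held 1 match, an AGGTCA, which 16.3% of 32851 promoters hold. Nr1d1 and Rora held none in this window, where CACGTG was found in 7.15% of promoters, GGGTCA in 13.7%, the ROR response element in 1.02%, the direct repeat in 0.00913%, TTATGTAA in 0.938% and TTACGTAA in 0.119%. Sites outside the window were not searched.

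Levels are FPKM, sequenced fragments scaled to the length of the transcript and to the size of the library. The table holds no counts, so the depth behind an FPKM is unknown, and summed FPKM ranged from 732622 to 983738, highest in RORα f/f on CD replicate 2, where 1 gene without a symbol (ENSMUSG00000093077) held 18.7% of the sum. The hepatocyte markers Ttr, Apob, Cps1 and Serpina1c were at 455 FPKM or more in every library. Alb was listed at 0 in 4 libraries (RORα LKO on CD replicate 1, RORα f/f on HFD replicate 2 and both of RORα LKO on HFD) and at 29902 FPKM or more in the others, and such a 0 can be a failed estimate. Stellate cell markers (4 of 4 detected in every library) summed to 35.6 to 56.8 FPKM on CD and 65.8 to 90.6 on HFD. Most of this sum was Dcn (26.4 to 45.3 on CD, 52.5 to 72.2 on HFD). Dcn and Reln were higher on HFD without overlap, as Nr1d1 was. Lrat (1.67 to 2.73 on CD, 2.46 to 4.00 on HFD) and Col1a1 (0.548 to 1.08 and 0.570 to 0.921) overlapped between the diets. Adipocyte markers summed to 5.47 or less. The part of stellate cells and adipocytes in the diet differences was not tested. Sums of the 5 Kupffer cell markers (52.4 to 91.3), the 4 endothelial (31.1 to 46.6), the 4 cholangiocyte (16.8 to 30.3) and the 5 leukocyte markers (1.70 to 3.43) overlapped between the diets. In bulk liver, fewer cells of a type and less RNA per cell cannot be told apart.

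Rora was measured at nearly the same level in all groups. The values were 8.85 and 8.59 FPKM in RORα f/f on CD, 7.96 and 8.18 in RORα LKO on CD, 7.56 and 7.86 in RORα f/f on HFD, and 7.30 and 8.02 in RORα LKO on HFD. The RORα LKO libraries were lower than the RORα f/f libraries on CD without overlap, and on HFD the groups overlapped. The highest library was 1.21 times the lowest.

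Group means were compared on log2(FPKM + 1) after quantile normalization, with limma's moderated test fitted to all 11634 genes above 1 FPKM in at least 1 library, a filter that all 3 receptor genes passed in every library. On this scale the genotype difference of Rora (RORα LKO minus RORα f/f) was -0.10 ± 0.07 (SE) on CD, with a 95% interval of -0.27 to 0.08 and an adjusted p of 0.61. On HFD it was 0.01 ± 0.07 (-0.16 to 0.19, adjusted p = 0.97). No difference between the genotypes was detectable in the level summed over the gene. The deleted part is 4.95% of Rora-201 and 20.8% of Rora-202, and the transcripts are not separated here, so this level does not check the deletion. The expression table gives no value per exon, so the labels of the RORα LKO libraries rest on the submitters' genotype. Separately, the study reports that RORα mRNA and protein were depleted in liver extracts and primary hepatocytes of RORα LKO mice. The whole-gene value for Rora also includes 82 exonic bases shared with Gm15511, an antisense gene listed at 0 in all 8 libraries.

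By diet, Rora was lower on HFD than on CD in RORα f/f without overlap of the libraries, by 0.14 (log2, 95% interval of the difference -0.31 to 0.03, adjusted p = 0.35). In RORα LKO the libraries overlapped (difference -0.03, adjusted p = 0.88). In order of mean level, RORα f/f on CD (8.72 ± 0.184 FPKM, SD, n = 2) stood above RORα LKO on CD (8.07 ± 0.151), RORα f/f on HFD (7.71 ± 0.216) and RORα LKO on HFD (7.66 ± 0.506). The last 2 groups did not differ beyond their spread, and no neighbouring pair compared here passed the adjusted test. Rorb, another gene of the ROR family, was at 0.0104 FPKM or less in every library and was not tested.

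**Figure D2:**
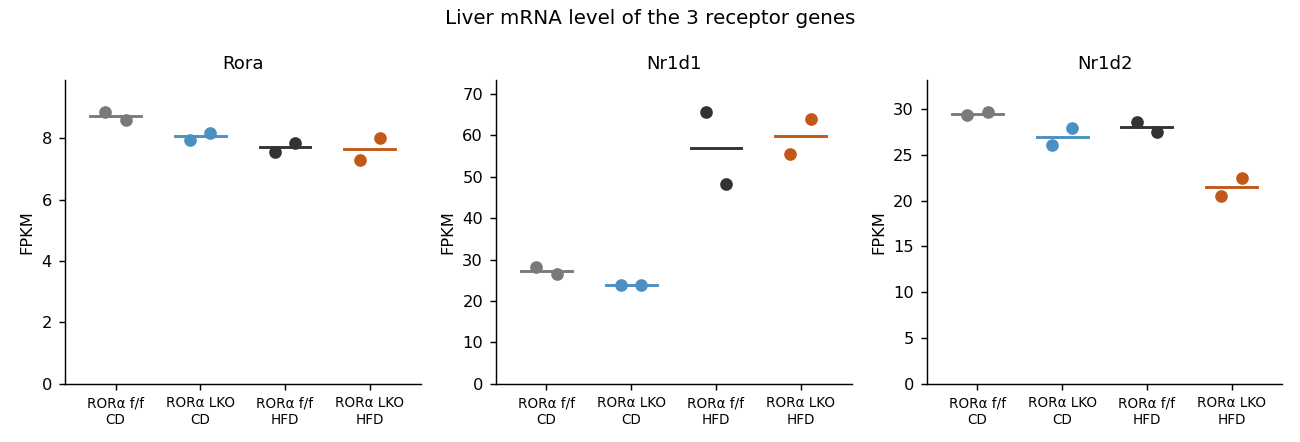
FPKM of Rora, Nr1d1 and Nr1d2 in the 8 liver libraries, by genotype and diet, each axis starting at 0; points are libraries (each a pool of 2 mice) and lines are group means. Nr1d1 is at 48.3 FPKM or more in the 4 HFD libraries and at 28.1 or less in the 4 CD libraries, Nr1d2 is lowest in the RORα LKO libraries on HFD (20.5 and 22.4), and Rora stays between 7.30 and 8.85.

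Nr1d1, which encodes REV-ERBα, was higher on HFD in both genotypes, at 2.09 times the CD mean in RORα f/f and 2.51 times in RORα LKO. It was at 28.1 and 26.5 FPKM in RORα f/f on CD and at 65.6 and 48.3 on HFD. In RORα LKO it was at 23.7 and 23.8 on CD and at 55.5 and 64.0 on HFD. All 4 HFD libraries stood above all 4 CD libraries, and the lowest HFD value was 48.3 against a highest CD value of 28.1. The share of all genes that separate over the 8 libraries was not counted. Within a genotype 49.9% in RORα f/f and 53.2% in RORα LKO did not overlap between the diets, in either direction.

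The diet difference of Nr1d1 on the log2(FPKM + 1) scale was 1.05 ± 0.14 (SE) in RORα f/f (95% interval 0.71 to 1.40, adjusted p = 0.037) and 1.35 ± 0.14 in RORα LKO (1.01 to 1.69, adjusted p = 0.018). Averaged over genotypes it was 1.20 ± 0.10 (0.96 to 1.44, adjusted p = 0.0036), which is 2.30-fold on this scale. Nr1d1 was the only 1 of the 3 genes called by diet, where 1.33% of all tested genes were called in RORα f/f, 3.02% in RORα LKO and 9.89% averaged over genotypes. The study's permutation procedure, rewritten with 100 regroupings, also called Nr1d1 by diet in both genotypes and neither of the other members, and it called 7.13% of genes in RORα f/f and 7.96% in RORα LKO. The 4 libraries of each diet comparison taken alone gave the same differences without a call (adjusted p = 0.17 in RORα f/f and 0.11 in RORα LKO). Without each of the 8 libraries in turn, the call averaged over genotypes held in 8 of 8 fits, that in RORα f/f in 1 (without RORα f/f on HFD replicate 2) and that in RORα LKO in 2 (without either RORα f/f library on HFD). The lowest difference in RORα f/f was 0.83 (adjusted p = 0.074), without RORα f/f on HFD replicate 1, the library at 65.6 FPKM.

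By genotype Nr1d1 was not called. On CD both RORα LKO libraries were below both RORα f/f libraries (-0.16, 95% interval -0.51 to 0.18, adjusted p = 0.66). On HFD the RORα LKO libraries lay between the RORα f/f libraries (0.13, -0.21 to 0.47, adjusted p = 0.81). The difference of the diet responses between the genotypes was 0.30 ± 0.20 (-0.19 to 0.78, adjusted p = 0.71), so an unequal diet response was not detectable with 2 libraries a group. In order of mean level, RORα LKO on HFD (59.8 ± 5.98 FPKM, SD) and RORα f/f on HFD (56.9 ± 12.2) did not differ beyond their spread, RORα f/f on CD followed at 27.3 ± 1.15, and RORα LKO on CD was lowest at 23.8 ± 0.0541.

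**Figure D3:**
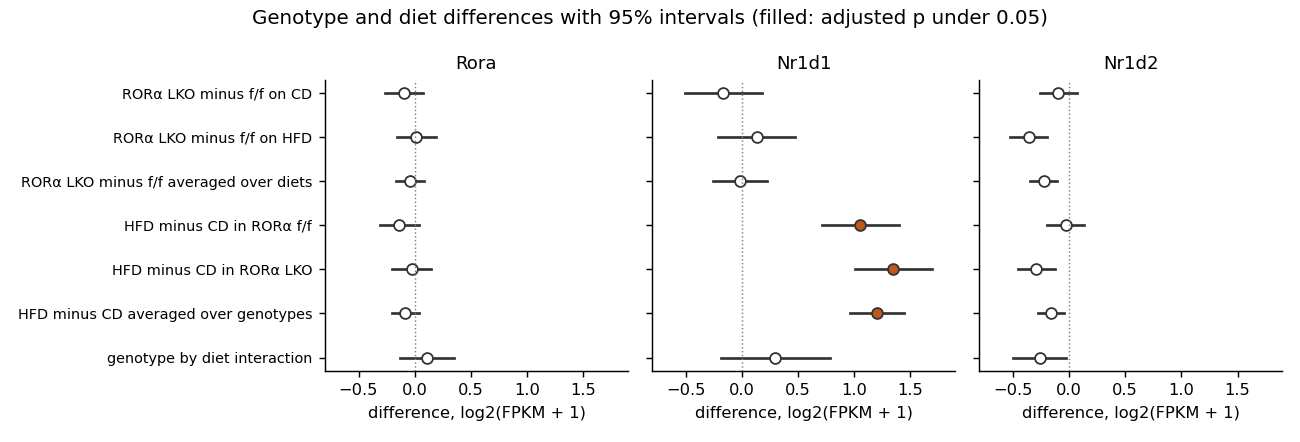
Differences between group means of Rora, Nr1d1 and Nr1d2 on the log2(FPKM + 1) scale (horizontal axis) for each comparison (vertical axis), with 95% intervals of the limma fit; filled points have an adjusted p under 0.05. The 3 filled points are the diet differences of Nr1d1 (1.05, 1.35 and 1.20), and the Nr1d2 point for genotype on HFD lies at -0.36.

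Nr1d1 lies on the minus strand at chr11:98767932-98775333, and its last exons overlap those of Thra, the thyroid hormone receptor α gene, which is transcribed from the other strand. The overlap lies within chr11:98768157-98768419 and holds 263 exonic bases, 8.55% of those of Nr1d1 and 5.7% of those of Thra. The library kit does not mark strand, so reads from these bases cannot be told apart between the 2 genes. Thra was at 3.50 and 3.51 FPKM in RORα f/f on CD, 4.95 and 4.91 in RORα LKO on CD, 6.47 and 5.61 in RORα f/f on HFD, and 6.63 and 7.13 in RORα LKO on HFD.

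Thra rose with HFD in both genotypes, by 0.66 ± 0.08 on the log2(FPKM + 1) scale in RORα f/f (adjusted p = 0.034) and by 0.44 ± 0.08 in RORα LKO (adjusted p = 0.045). In each HFD group the library with the higher Nr1d1 value also had the higher Thra value. In each CD group, where the libraries lay close together in Thra, that order was opposite. On CD the order of the genotypes was opposite for the overlapping genes, with Thra higher in RORα LKO (0.39 ± 0.08, adjusted p = 0.20) and Nr1d1 lower. The part of the shared bases in either gene's value was not tested. Averaged over genotypes the diet difference of Thra was 0.55 (adjusted p = 0.0059), a call that held without each of the 8 libraries in turn. Within a genotype it was called in 0 of these 8 fits (adjusted p up to 0.18 in RORα f/f and 0.19 in RORα LKO) or with a replicate block (0.054 and 0.074), and in RORα LKO it was also not called without quantile normalization (0.061).

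**Figure D4:**
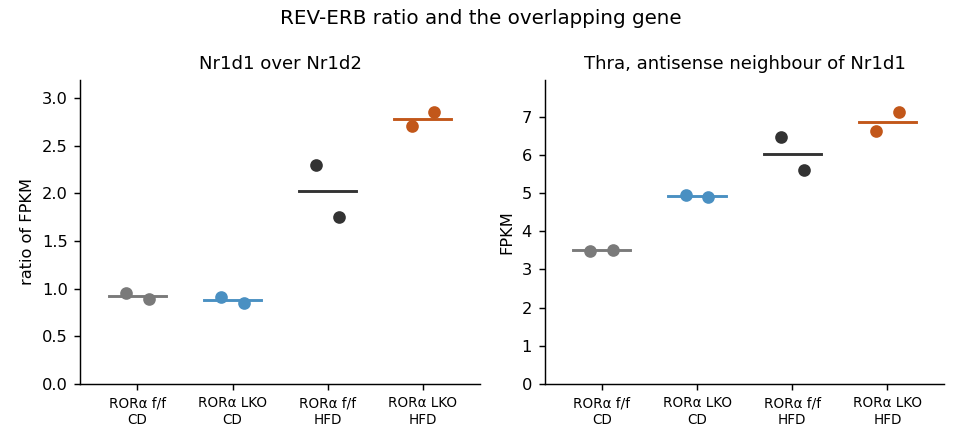
Left, FPKM of Nr1d1 divided by FPKM of Nr1d2 in each library; right, FPKM of Thra, whose exons overlap those of Nr1d1 on the other strand. Points are libraries and lines are group means; the ratio is 0.958 or less in the CD libraries and 1.76 or more in the HFD libraries, and Thra is lowest in RORα f/f on CD (3.50 and 3.51).

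Nr1d2, which encodes REV-ERBβ, was lowest in the RORα LKO livers on HFD. It was at 29.3 and 29.6 FPKM in RORα f/f on CD, 26.0 and 27.9 in RORα LKO on CD, 28.6 and 27.5 in RORα f/f on HFD, and 20.5 and 22.4 in RORα LKO on HFD. The RORα LKO libraries were below the RORα f/f libraries on both diets without overlap. The highest value was 1.45 times the lowest.

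The genotype difference of Nr1d2 was -0.36 ± 0.07 (SE) on HFD (95% interval -0.52 to -0.19, limma unadjusted p = 0.0015, adjusted p = 0.23), on the log2(FPKM + 1) scale. It was -0.10 ± 0.07 on CD (-0.26 to 0.07, adjusted p = 0.60) and -0.23 ± 0.05 averaged over diets (unadjusted p = 0.0026, adjusted p = 0.14). None of these passed the adjusted test over all genes, where few genes were called by genotype: 0.0172% on CD, 0.043% on HFD and 0.103% averaged over diets. At an unadjusted p under 0.05, a level that Nr1d2 alone of the 3 genes passed by genotype, 9.58% of all genes differed on HFD and 13.5% averaged over diets. The permutation procedure gave Nr1d2 a combined p of 0.012 for genotype on HFD, with a difference short of the fold-change cutoff of 0.48 (log2), and did not call it.

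By diet, Nr1d2 differed by -0.29 ± 0.07 in RORα LKO (95% interval -0.46 to -0.13, unadjusted p = 0.0044, adjusted p = 0.076) and by -0.03 ± 0.07 in RORα f/f (-0.19 to 0.14, adjusted p = 0.86). Averaged over genotypes the diet difference was -0.16 ± 0.05 (unadjusted p = 0.014, adjusted p = 0.089). The interaction, the genotype difference on HFD less that on CD, was -0.26 ± 0.10 (-0.49 to -0.03, unadjusted p = 0.033, adjusted p = 0.58). An unadjusted p under 0.05 was reached by 21.3% of all genes for diet in RORα LKO, by 27.9% for diet averaged over genotypes and by 8.35% for the interaction, where 0.0344% passed the adjusted test. In order of mean level, RORα f/f on CD (29.5 ± 0.215 FPKM, SD), RORα f/f on HFD (28.0 ± 0.764) and RORα LKO on CD (27.0 ± 1.34) lay close together, the last of these overlapping with RORα f/f on HFD, and RORα LKO on HFD (21.5 ± 1.38) lay below them.

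Over the 3 genes, non-overlap of the libraries was no rare event. On CD all 3 were lower in RORα LKO without overlap, and 43.3% of all tested genes did not overlap in that comparison, in either direction. On HFD only Nr1d2 of the 3 did not overlap between the genotypes, against 42.1% of all genes. By diet all 3 did not overlap in RORα f/f (49.9% of all genes), and Nr1d1 and Nr1d2 did not in RORα LKO (53.2%). Libraries of 1 group agreed more closely for Rora and Nr1d2 than for most genes, with a mean gap of 0.06 and 0.07 (log2) between the libraries of a group against a median of 0.14 over all tested genes, and the gap for Nr1d1 was 0.18, with 0.45 between the RORα f/f libraries on HFD.

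The ratio of the REV-ERB genes to each other differed between the diets in every library. In the CD libraries Nr1d1 was at 0.853 to 0.958 times the level of Nr1d2, and in the HFD libraries at 1.76 to 2.85 times, with the higher values (2.71 and 2.85) in RORα LKO. The summed FPKM of both REV-ERB genes was 6.25 to 6.53 times that of Rora on CD and 9.64 to 12.5 times on HFD. Nr1d2 over Rora stayed at 3.27 to 3.45 on CD, and on HFD it was 3.50 and 3.78 in RORα f/f and 2.80 and 2.80 in RORα LKO. These ratios compare levels per length and were not tested, and the Rora value counts bases outside the deleted exons, so that it is no measure of intact RORα mRNA.

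The genes whose normalized values followed each receptor most closely over the 8 libraries were taken from 9838 genes above 1 FPKM in all libraries, by Pearson's r as a description. For Nr1d2 they were Fdx1 (r = 0.988), which encodes the ferredoxin that feeds electrons to mitochondrial cytochromes P450, Upp2 (0.986), a uridine phosphorylase of liver, Prdm4 (0.968), Per2 (0.967), a clock repressor, and Fam47e (0.966). Upp2 was at 268 and 264 FPKM in RORα f/f on CD, 192 and 214 in RORα LKO on CD, 230 and 240 in RORα f/f on HFD, and 104 and 136 in RORα LKO on HFD. As with Nr1d2, by whose pattern Upp2 was chosen, the RORα LKO libraries on HFD were the lowest. For Nr1d1 the closest were Etfa (0.986), an electron carrier of fatty acid oxidation, Odf3b (0.977), Dtnbp1 (0.977), Prkca (0.976), a protein kinase C, and Akr1c6 (0.975), a hydroxysteroid dehydrogenase of liver. All were at higher FPKM in every HFD library than in any CD library. Their choice by similarity to Nr1d1 favours this, so it is no separate result. For Rora they were Gspt1 (0.968), a translation release factor, Clp1 (0.955), Dnajb6 (0.955), a chaperone, Hdgf (0.951) and Nufip2 (0.947). The points share the diet groups and the normalization.

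Among the clock activators, whose products drive the REV-ERB genes, Arntl was near the detection filter at 0.219 to 1.93 FPKM and Npas2 stayed under it at 0.642 or less. By diet averaged over genotypes Arntl was higher on HFD by 0.51 ± 0.19 (limma unadjusted p = 0.035, adjusted p = 0.14). The permutation procedure called it higher on HFD in RORα LKO (0.71), where it called 7.96% of all genes, and not in RORα f/f (0.31). In RORα LKO Arntl was at 0.456 and 0.219 FPKM on CD and at 1.93 and 0.611 on HFD. Its HFD libraries thus lay far apart. In RORα f/f it was at 0.587 and 0.535 on CD and at 1.13 and 0.745 on HFD. Clock was at 5.21 and 6.67 FPKM in RORα f/f on CD, 6.85 and 6.74 in RORα LKO on CD, 6.28 and 5.58 in RORα f/f on HFD, and 8.32 and 7.75 in RORα LKO on HFD. Its genotype difference on HFD was 0.40 ± 0.11 (adjusted p = 0.33). The hour at which the mice were killed is not given in the sources used here, and with genes that cycle over the day a difference in hour between groups cannot be told apart from diet or genotype.

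Most of the other listed repressors and outputs of the clock lay on the same side as Nr1d2 in RORα LKO livers on HFD. The exceptions were Nfil3 (0.19) and Hlf (0.06), which lay above 0. Of 9 clock repressors (Per1, Per2, Per3, Cry1, Cry2, Ciart, Bhlhe40, Bhlhe41, Nfil3), 8 were lower on HFD in RORα LKO with a median of -0.57 (log2, all tested genes: -0.00067), and 6 had an unadjusted p under 0.05. Of 5 outputs (Dbp, Tef, Hlf, Usp2, Wee1), 4 were lower with an unadjusted p under 0.05, and the median was -0.61. None of the 14 passed limma's adjusted test, and 4.12% of all genes were lower at that unadjusted level. The permutation procedure called 6 repressors and 4 outputs lower, where it called 3.91% of all genes in either direction and 1.73% as lower.

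Dbp, the PAR bZIP factor driven directly by the clock, had the largest of these differences. It was at 72.3 and 58.5 FPKM in RORα f/f on HFD and at 28.5 and 36.2 in RORα LKO on HFD (-1.002 ± 0.16, adjusted p = 0.14). Per2 was at 5.90 and 5.83 FPKM against 3.51 and 3.69 (-0.57 ± 0.10, adjusted p = 0.20), and Ciart, a repressor of CLOCK and BMAL1, at 25.9 and 20.4 against 11.9 and 13.4 (-0.79 ± 0.15, adjusted p = 0.23). In each of these genes both RORα LKO libraries were below both RORα f/f libraries. Between the genotypes on HFD 42.1% of all genes did not overlap, in either direction. On CD the medians were -0.06 for the repressors and -0.27 for the outputs, with 3 of 9 and 2 of 5 lower at an unadjusted p under 0.05 (6.12% of all genes). At that level 1 repressor was higher (Bhlhe40, 0.50), 4 of the 9 lay above 0, and the permutation procedure called 1 of each lower among the 4.4% of genes it called. Averaged over diets, 5 of 9 repressors and 4 of 5 outputs were lower at that level, against 6.3% of all genes, and 0 passed the adjusted test. Without RORα f/f on CD replicate 2 the repressors' median on CD turned to 0.01, with 1 of 9 lower at that level.

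**Figure D5:**
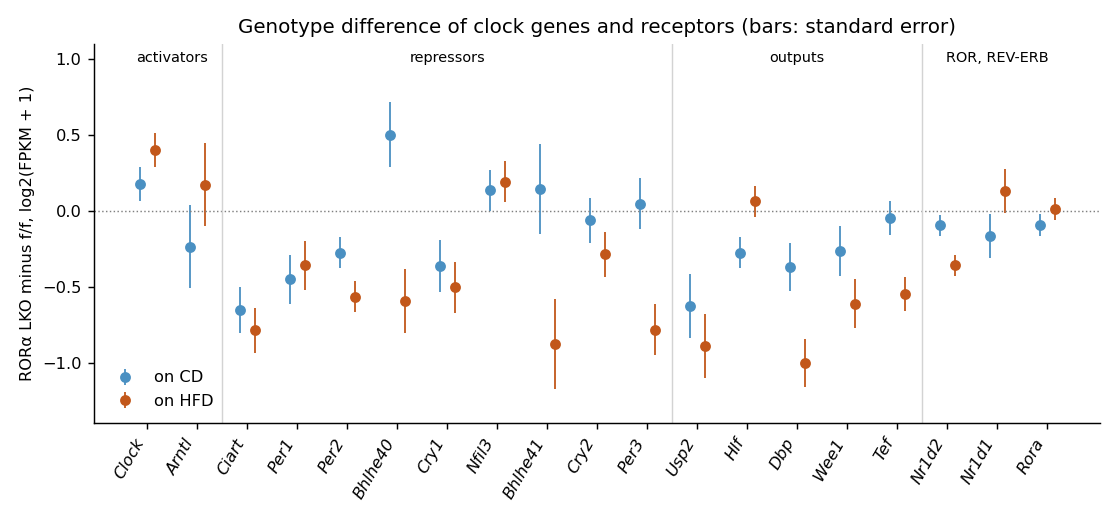
Genotype difference (RORα LKO minus RORα f/f) on the log2(FPKM + 1) scale for clock activators, repressors and outputs and for the receptor genes, on CD (blue) and on HFD (orange); bars are standard errors of the limma fit. On HFD 8 of 9 repressors and 4 of 5 outputs lie below 0, Dbp at -1.002, and Nr1d2 lies at -0.36 while Nr1d1 lies at 0.13.

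By diet averaged over genotypes, Hlf rose (0.51 ± 0.07, adjusted p = 0.011) and Ciart rose (0.46 ± 0.11, adjusted p = 0.043) along with Nr1d1, and Bhlhe40, a repressor induced by many stimuli, fell (-0.68 ± 0.15, adjusted p = 0.038). These were 2 of the 9 repressors and 1 of the 5 outputs, against 9.89% of all genes. Without each of the 8 libraries in turn, Hlf was called in 6 fits (not without RORα f/f on CD replicate 2, adjusted p = 0.052, or RORα LKO on HFD replicate 1, 0.055), Bhlhe40 in 2 (those without a RORα f/f library on CD, others at adjusted p up to 0.13) and Ciart in 0 (up to 0.14). The call for Ciart was also lost without quantile normalization (0.056) and with a replicate block (0.064).

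Calls among genes that act on the REV-ERB proteins are given here beside the shares of all tested genes. By genotype averaged over diets, limma called 0.103% of all genes, and 13.5% had an unadjusted p under 0.05. By diet averaged over genotypes it called 9.89%. The permutation procedure called 4.4% by genotype on CD and 3.91% on HFD. Of 5 genes of the corepressor complex (Ncor1, Hdac3, Tbl1x, Tbl1xr1, Gps2) 0 passed the adjusted limma test by genotype averaged over diets, with 1 at an unadjusted p under 0.05 (Tbl1xr1, 0.21 ± 0.07), and the permutation procedure called none on either diet. By diet averaged over genotypes Gps2 rose (0.27 ± 0.06, adjusted p = 0.036), a call lost without quantile normalization (0.055), with a replicate block (0.053) and in 7 of the 8 fits that left out 1 library (all but RORα f/f on CD replicate 1, adjusted p up to 0.11). Of 10 genes of heme synthesis and breakdown, which set the supply of the REV-ERB ligand, 0 passed limma by genotype averaged over diets and 0 had an unadjusted p under 0.05, and the permutation procedure called 1 on CD (Alas1, lower) and 0 on HFD. On CD Alas1 was at 355 and 301 FPKM in RORα f/f and at 128 and 298 in RORα LKO, so only RORα LKO replicate 1 stood far below. Cpox, which makes protoporphyrinogen, rose with HFD averaged over genotypes (0.34 ± 0.06, adjusted p = 0.017) and was called in 2 of the 8 fits without 1 library (without RORα f/f on HFD replicate 2 or RORα LKO on HFD replicate 1), with an adjusted p of at most 0.064 in the others. Alas1, the rate-limiting enzyme of heme synthesis and itself a clock-driven gene, differed by -0.61 ± 0.32 by genotype (adjusted p = 0.46) and 0.42 ± 0.32 by diet (adjusted p = 0.44). Of 5 genes of REV-ERB protein turnover, all 5 were lower on HFD averaged over genotypes and 1 passed, the ubiquitin ligase Huwe1, which fell by 0.28 (adjusted p = 0.027). It was called in 2 of the 8 fits without 1 library (without RORα LKO on CD replicate 1 or RORα f/f on HFD replicate 1), with an adjusted p of at most 0.092 in the others. By genotype averaged over diets 0 of the 5 passed limma, 0 had an unadjusted p under 0.05, and the permutation procedure called 0 on either diet.

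Of 6 coactivator genes of RORα 0 passed the adjusted limma test by genotype or diet in the averaged comparisons, against 0.103% and 9.89% of all genes. In each comparison 1 had an unadjusted p under 0.05, against 13.5% of all genes by genotype and 27.9% by diet. Ppargc1a (PGC-1α) differed by -0.55 ± 0.11 by genotype on CD (adjusted p = 0.20) and by 0.04 ± 0.11 on HFD (adjusted p = 0.94), and the permutation procedure called it lower on CD. Ncoa2 differed by -0.22 ± 0.08 by diet (adjusted p = 0.14).

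Among 11 liver genes listed as targets of RORα or the REV-ERBs, Insig2, an endoplasmic reticulum protein that restrains SREBP processing and a known REV-ERB target, was the 1 gene called by genotype with limma. It was at 66.5 and 67.9 FPKM in RORα f/f on CD, 113 and 99.97 in RORα LKO on CD, 82.4 and 81.0 in RORα f/f on HFD, and 157 and 156 in RORα LKO on HFD. All 4 RORα LKO libraries stood above all 4 RORα f/f libraries. The share of all genes that separate over the 8 libraries was not counted. Within a diet 43.3% on CD and 42.1% on HFD did not overlap between the genotypes, in either direction. Limma called 0.043% of all genes by genotype on HFD, 0.0172% on CD and 0.103% averaged over diets. For Insig2 the difference was 0.94 ± 0.08 on HFD (adjusted p = 0.029), 0.65 ± 0.08 on CD (adjusted p = 0.089) and 0.79 ± 0.06 averaged over diets (adjusted p = 0.0074). The call averaged over diets held in 7 of the 8 fits without 1 library (not without RORα LKO on HFD replicate 1, adjusted p = 0.052), and that on HFD in 2 (without either RORα LKO library on CD, others up to 0.15). Fgf21, a hormone of fasting, differed by 0.89 ± 0.17 averaged over diets (adjusted p = 0.12) and Elovl3, a fatty acid elongase, by 0.57 ± 0.15 (adjusted p = 0.18). The permutation procedure called more of the 11 by genotype. On HFD it called 4 higher in RORα LKO (Insig2, Elovl3, Fgf21 and Cyp8b1) and 2 lower (Cyp7b1 and Avpr1a), and on CD 2 higher (Insig2 and Fgf21) and 1 lower (Cyp7b1), against 3.91% and 4.4% of all genes. On CD Cyp7b1 was at 208 and 193 FPKM in RORα f/f and at 85.3 and 162 in RORα LKO, where the libraries lay far apart.

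By diet averaged over genotypes 4 of the 11 were called with limma, against 9.89% of all genes. G6pc, the last step of glucose output and a gene that REV-ERBα is known to repress, fell by 2.04 (log2, SE 0.10, adjusted p = 0.00053), and Cyp7b1, a bile acid enzyme known as a RORα target, fell by 1.37 (SE 0.24, adjusted p = 0.020). Insig2 rose (0.50 ± 0.06, adjusted p = 0.0067), and so did Avpr1a (0.90 ± 0.19, adjusted p = 0.036), a vasopressin receptor. Without each of the 8 libraries in turn, G6pc and Insig2 were called in 8 of 8 fits, Cyp7b1 in 2 (without RORα LKO on CD replicate 1 or RORα f/f on HFD replicate 1, others at adjusted p up to 0.089) and Avpr1a in 1 (without RORα LKO on CD replicate 1, others up to 0.13). Without RORα f/f on CD replicate 2, for example, 2 of the 11 were called. The permutation procedure called 1 higher and 4 lower on HFD in RORα f/f, against 7.13% of all genes in either direction. In RORα LKO it called 2 higher and 3 lower, against 7.96%.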

How the data were processed

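Poly(A) RNA of 8 liver pools was sequenced as paired ends with a TruSeq v2 kit that does not mark strand. According to the submitters' notes and the study's methods, the authors trimmed reads (cutadapt 1.0), aligned them to GRCm38 (TopHat2 2.0.7) and deposited 1 table of FPKM per gene from Cufflinks, whose version is not given in the sources used here. Symbols were matched for 36341 of 38283 gene IDs, and 0 sample columns were left unused. Here, genes above 1 FPKM in at least 1 library (11634) were set to log2(FPKM + 1), quantile normalized as in the study, and fitted with limma 3.58.1 (R 4.3.3) as 4 group means with a mean-variance trend (4 residual degrees of freedom, 2.8 prior), with Benjamini-Hochberg adjustment over all genes and calls under 0.05. A fold change on this scale understates that of low genes. The study's permutation procedure, run as an alternative with 100 regroupings and a null pooled over genes, called at a combined p of at most 0.05 and a fold change past the 95th percentile of the null. Scripts were tested on simulated data. Named genes were the members, genes sharing exons with them, up to 3 per list and comparison by lowest unadjusted p, and the 5 most similar to each member. Further list genes are named where a procedure called them or where they went against most of their list. The members and lists were chosen with earlier results of these data known. Libraries are pools of different mice, and p-values measure the spread between pools. Some genes of the lists are not reported here.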

Additional observations from a re-analysis of the deposited data

How the results depend on the processing

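The 21 results on Rora, Nr1d1 and Nr1d2 were recomputed 339 times in all under other settings, and 313 of these values kept their direction and their side of the threshold. The diet call of Nr1d1 averaged over genotypes held in all 15 (1.09 to 1.31, adjusted p at most 0.026). Its diet difference in RORα f/f stayed at 1.05 but was not called with a filter of FPKM above 0 (adjusted p = 0.075), the replicate number as a block (0.055), no trend (0.060) or the 4 libraries of the comparison alone (0.17), and that in RORα LKO stayed at 1.35 without a call with 4 libraries alone (0.11). The cause was not tested, beyond fewer residual degrees of freedom under the block and in the fits of 4 libraries. Leaving out 1 library at a time gave 0.83 to 1.28 in RORα f/f (adjusted p 0.021 to 0.22) and 1.26 to 1.44 in RORα LKO (0.022 to 0.10). A sign turned only where no call was made. For Rora by genotype on HFD it turned without quantile normalization (-0.0088), with median centring (-0.0016) and among the leave-one-out values (-0.032 to 0.06), for Rora by diet in RORα LKO among the latter (-0.072 to 0.019), and for Nr1d1 by genotype on HFD (-0.094 to 0.36) and averaged over diets (-0.13 to 0.096), again among the latter.

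Replicate numbers of the labels do not name shared animals, and deviations of same-numbered libraries correlated at 0.145 between the genotypes on CD and 0.0878 on HFD (0.0211 and 0.0236 without zeros), so the block was not taken as pairing. It left every other call on the members as it was and moved the genes called by diet from 155 to 34 in RORα f/f and from 351 to 223 in RORα LKO. Other counts of called genes also depended on the setting. By diet they ranged from 5 to 829 in RORα f/f, 0 to 926 in RORα LKO and 335 to 1304 averaged over genotypes. By genotype they ranged from 0 to 512 on CD, 4 to 455 on HFD and 7 to 50 averaged over diets, and for the interaction from 0 to 21. The highest counts of each 2-group comparison came from the permutation procedure. Counts over the gene lists and calls of their single genes under other settings were added after seeing the data. FPKM values give no depth, so the precision of single values is unknown.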
